A study of Mus musculus with 4 samples.

Results

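SCL (gene symbol Tal1) is a basic helix-loop-helix (bHLH) transcription factor needed for blood specification, and the peaks described here are the distal SCL peaks that held a full E-box but no GATA motif at their summit. Members were taken from the pooled SCL peak list by position and sequence alone. The summit had to lie more than 1 kb from every annotated transcription start site (TSS). The window of 50 bp on each side of it had to contain CANNTG on either strand (N is any base). The same window was not allowed a GATA motif, here A or T, then GATA, then A or G, nor a composite, here CTG followed after 7 to 9 bp by GATA. The rule kept 1508 of the 12885 peaks (11.7%) and of the 11793 distal peaks (12.8%, Wilson 95% confidence interval 12.2% to 13.4%).

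The chromatin came from FLK1+ cells isolated from day 3.5 embryoid bodies, the aggregates formed by differentiating mouse embryonic stem (ES) cells. The ES cells of both groups were the wild-type line J1, and the sample labels give the strain as C57Bl/6 X Sv129. One group was 2 chromatin immunoprecipitation sequencing (ChIP-seq) libraries made with an in-house SCL rabbit anti-serum, the other 2 input libraries made without antibody. Both ChIP libraries were merged by the authors and called against the merged input, so that no value given here has a replicate error. The list is longer than the set of bound loci the study counts, and all of its peaks were used. The study names a filter on peaks made in a genome viewer (MIG), with thresholds that are not given in the sources used here. FLK1 marks mesoderm with several potentials, and the libraries cannot separate the cell types within it.

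bHLH factors bind E-boxes as dimers, and SCL does so with a partner of the E protein family. In blood cells SCL is known to work in a complex in which the adaptors LMO2 and LDB1 join the SCL dimer to a GATA factor, so that part of an E-box and a GATA motif are bound side by side at a fixed spacing. Ets factors such as FLI1 and ERG, which recognise a GGAA core, are found with this complex at many blood and endothelial enhancers.

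The windows of 4 members are printed first to show the different ways in which E-boxes lay around the summit. Tspan33, Synj2 and Aplnr are the nearest genes of the 3 members with the highest fold, and at Erg, an Ets factor gene, the E-box was centred on the summit. Sequences are from the NCBIM37 (mm9) genome, plus strand, 5′ to 3′, and capitals mark every E-box. The windows are chr6:29651216-29651316 (Tspan33), chr17:5966800-5966900 (Synj2), chr2:84981128-84981228 (Aplnr) and chr16:95573977-95574077 (Erg).
Tspan33: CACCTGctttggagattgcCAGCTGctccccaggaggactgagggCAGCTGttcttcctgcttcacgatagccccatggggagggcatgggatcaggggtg
Synj2: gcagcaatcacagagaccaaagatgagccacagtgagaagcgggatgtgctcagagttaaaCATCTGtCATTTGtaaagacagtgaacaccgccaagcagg
Aplnr: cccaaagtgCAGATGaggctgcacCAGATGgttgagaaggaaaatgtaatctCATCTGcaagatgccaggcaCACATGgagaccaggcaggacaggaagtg
Erg: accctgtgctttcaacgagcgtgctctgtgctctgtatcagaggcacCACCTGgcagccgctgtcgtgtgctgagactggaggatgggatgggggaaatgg

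Tspan33 had 3 E-boxes, Synj2 had 2, Aplnr had 4 and Erg had 1. The 4 bases GATA without the flanking base of the full motif were also present at Tspan33 and Erg. CATCTG is CAGATG read on the other strand, and the types are counted under CAGATG below.

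A pair of arrangements recurred in the windows, and the strongest members with each are printed because the later results turn on them. In the first, CTG, the 3 bases that end CAGCTG and some other E-boxes, was followed after 8 or 9 bp by GATT, a variant of GATA that differs at a single base. Each line is 5′ to 3′ on the strand that reads CTG first, with CTG and GATT in capitals. The sites are chr6:108654822-108654845 minus (0610040F04Rik), chr8:122496611-122496633 plus (Usp10), chr9:49542095-49542118 plus (Ncam1), chr10:83309276-83309299 plus (1500009L16Rik) and chr12:13000912-13000934 minus (Mycn).
0610040F04Rik: acagCTGtatctaactGATTagcc
Usp10: ccagCTGccccagagGATTtcct
Ncam1: tctgCTGcaaactagaGATTaaaa
1500009L16Rik: ctccCTGctctcaactGATTagat
Mycn: gcaaCTGgctttactGATTggaa

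In the second arrangement, GGAA stood 1 bp before an E-box. Each line is 5′ to 3′ on the strand that reads GGAA first, with GGAA and the E-box in capitals. The sites are chr16:6993421-6993439 plus (Rbfox1), chr14:23579077-23579095 minus (1700112E06Rik), chr17:5794450-5794468 plus (Snx9), chr8:12387118-12387136 plus (Gm5607) and chr9:67873586-67873604 minus (Vps13c).
Rbfox1: tagaGGAAgCAGATGagtg
1700112E06Rik: tgtgGGAAaCAGCTGtttg
Snx9: aacaGGAAaCACATGgggg
Gm5607: ggcaGGAAaCAGGTGtttg
Vps13c: tccaGGAAgCACTTGggtt

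To ask how strongly SCL was bound at these sites, the fold enrichment was compared across the motif classes of distal peaks. The fold is the authors' own value, in which the ChIP level at the summit is divided by the local background. Members had a median fold of 9.46 (95% confidence interval of the median 9.17 to 9.90). Their quartiles were 7.23 and 15.4, and their folds ran from 1.41 to 175.5. Composite peaks, 3885 in number, had a median of 13.3 (12.8 to 13.7). The median was 11.4 (11.1 to 11.8) for the 2779 peaks with a GATA motif and a separate E-box, and 10.8 (10.5 to 11.2) for the 2506 with a GATA motif only. The 1115 peaks with neither motif had a median of 9.01 (8.69 to 9.32), and this interval overlapped that of the members. Members therefore lay below the 3 classes with a GATA motif or a composite. Their difference of 0.456 from the peaks with neither motif had an interval that included 0 (-0.0283 to 0.941). That interval excluded 0 with windows of 25 bp on each side, where the difference was 0.953 (0.449 to 1.46), and with summits within 500 bp merged, where it was 0.504 (0.0107 to 0.997). These intervals treat the peaks of 1 list as independent and cover no variation between differentiations.

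The same order was found in the number of fragments stacked at the summit (pileup), which was solved from the authors' fold and p. The median pileup of members was 48 fragments, with a Poisson 95% confidence interval of 35.4 to 63.6 for a peak at that depth. It was 60 fragments in composite peaks and 46 in peaks with neither motif. Local background had a median of 3.81 fragments in members and 3.67 in all distal peaks. Peak width did not follow the order, with medians of 399.5 bp in members and 399 bp in composite peaks. The window at the summit had a median GC content of 52.5% in members and in peaks with neither motif, and 50.5% in each class with GATA.

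Strong peaks were less common among members. A fold of at least 10 was reached by 706 members (46.8%), against 57.2% of all distal peaks. At least 50 was reached by 58 members (3.85%, 2.99% to 4.94%), against 7.25% of distal peaks, and at least 100 by 8 members (0.531%), against 1.6%. When distal peaks were ranked by fold into 10 bins of equal size, members made up 21.9% of the lowest bin (19.6% to 24.3%) and 6.86% of the highest (5.56% to 8.45%). They held 4 of the 100 strongest distal peaks and 66 of the 1000 strongest. Composite peaks moved in the opposite direction, from 20% of the lowest bin to 48.3% of the highest. Peaks with neither motif fell as members did, from 17.8% to 5%, with 42.5% (39.6% to 45.4%) at a fold of at least 10 and 3.77% (2.80% to 5.05%) at 50 or more, so that few strong peaks were not particular to members.

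**Figure D1:**
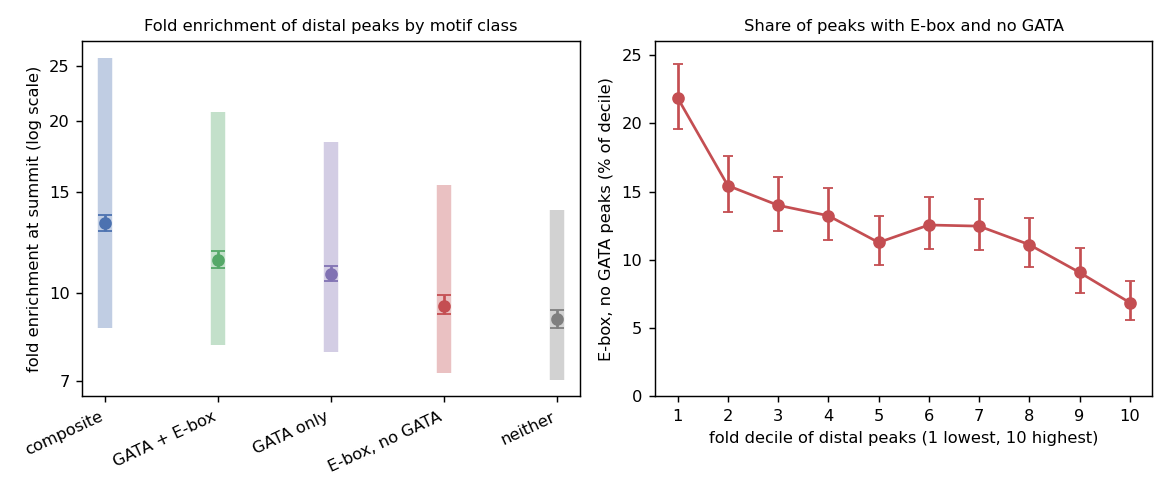
Left, fold enrichment at the summit (log scale) for the 5 motif classes of distal peaks, with points for the median, bars for its 95% confidence interval and shaded boxes for the quartiles. Right, share of peaks with an E-box and no GATA in each of 10 equal bins of distal peaks ranked by fold, with Wilson 95% confidence intervals. The share was 21.9% in the lowest bin and 6.86% in the highest.

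The 12 members with the highest fold were all in introns or between genes, where 44.0% and 52.9% of all members lay. The highest fold, 175.5 (95% Poisson interval from its 910 fragments 164.3 to 187.2), was in an intron of Tspan33, a tetraspanin membrane protein gene, at chr6:29650957-29651851 and 6762 bp from its TSS. Intervals of single folds vary the pileup alone and hold the local background fixed. The counting error of the background is not in them, so they are too narrow to settle the order of these peaks. The next was in an intron of Synj2, which encodes a phosphoinositide phosphatase, at chr17:5966467-5967162, with a fold of 161.0 (147.9 to 175.0). The peak at chr2:84980845-84981477, between genes and 4661 bp from the TSS of Aplnr, had a fold of 151.6 (144.4 to 159.1) and the deepest pileup of the 12, 1660 fragments. Aplnr encodes the apelin receptor, which is made in early mesoderm and endothelium. These 3 ranked 39, 56 and 66 among all peaks of the list.

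Of the others, a peak between genes nearest to 0610040F04Rik had a fold of 139.9 (129.9 to 150.4). An intronic peak of Tmem131, a transmembrane protein gene, followed with 112.7, and an intronic peak of Zfp521, a zinc finger gene active in blood progenitors, with 111.8. At Zfpm1, which encodes the GATA cofactor FOG1, an intronic peak at chr8:124836766-124838231 had a fold of 106.0 (98.1 to 114.3). An intronic peak of Rbfox1, a splicing factor gene, had a fold of 104.5. The folds at 1600002D24Rik, Gm17619, 1700112E06Rik and Npl, the last an enzyme gene of sialic acid breakdown, ran from 94.0 to 99.9. A neighbouring SCL summit lay within 2 kb of the peaks at Aplnr (1284 bp), Zfpm1 (1539 bp), Rbfox1 (952 bp), 1600002D24Rik (1356 bp) and Gm17619 (1855 bp).

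To see which E-boxes were present, all 10 types were counted and set beside windows 1 kb from distal summits that met the same sequence rule. Such flanking windows were common, 8209 of 23586 (34.8%), so the rule itself selected a smaller share of summits (12.8%) than of nearby sequence. Members nevertheless held other E-boxes than the flanking windows did. CAGATG was found in 640 members (42.4%, 39.97% to 44.95%) and in 18.8% of the flanking windows, a ratio of 2.26 (2.10 to 2.43). CAGCTG was found in 388 (25.7%, 23.6% to 28.0%) and in 10.7%, a ratio of 2.40 (2.16 to 2.67). One or the other was present in 956 members (63.4%) and 28.6% of the flanking windows. In peaks with a GATA motif and a separate E-box CAGATG was in 38.8% (37.0% to 40.6%), an interval that overlapped that of the members, and CAGCTG in 21.7% (20.2% to 23.3%), which was below it.

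The 8 other types were at or below their level in the flanking windows. CATATG was the rarest relative to them, at 1.99% against 6.55%, a ratio of 0.304 (0.211 to 0.437). CAAATG was found in 8.55% against 16.7%, CACATG in 13.5% against 21.2%, and CAAGTG in 9.68% against 14.8%. For CACCTG (14.3% against 17.2%) the ratio was 0.832 (0.729 to 0.949). For CACGTG, the E-box of the MYC and USF families, the ratio of 0.900 (0.655 to 1.24) was not distinguishable from 1, and the same held for CAACTG at 0.889 (0.759 to 1.04). A window can hold several types, so the shares do not add up to the whole.

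Differences in fold between the E-box types were not resolved at these numbers. Among members with a single type, the median ran from 7.09 at CACGTG (20 members) to 11.8 at CAACTG (77), with 9.77 (9.12 to 10.6) at the 392 with CAGATG and 10.2 (8.997 to 11.4) at the 234 with CAGCTG. The interval of the highest median, 8.28 to 13.8 at CAACTG, overlapped that of the lowest, 6.21 to 10.7 at CACGTG. A single E-box was present in 1016 members, 2 in 379, 3 in 97 and 4 or more in 16, and the median folds were 9.44, 9.67, 9.29 and 8.59. The strongest member with each type was also looked up. Lrrc4c, a neuronal adhesion protein gene, was nearest for CAACTG (fold 91.5), Usp10, a deubiquitinase gene, for CACGTG (73.6, with CAGCTG in the same window), and Gm9915 for CAATTG (42.5). The other types had theirs among the 12 members already named.

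E-boxes lay only slightly nearer to the summit than in the flanking windows. Of the 2136 E-boxes in members, 23.9% (22.1% to 25.7%) had their centre within 10 bp of the summit, against 20.7% in flanking windows, and 14.6% against 16.8% lay at 40 to 50 bp. For CAGATG 27.7% (24.5% to 31.0%) lay within 10 bp and for CACCTG 28.7% (23.2% to 34.9%), against 21.8% and 19.97% of those types in the flanking windows. For CAGCTG the share was 23.5% (19.7% to 27.8%).

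The bases beside CAGATG were also uneven. The base just before it was T at 7.9% of the sites in members and 21.6% in the flanking windows, and G at 29.5% and 22.2%. The base just after it was A at 12.5% and 22.9%, and G at 37.6% and 29.1%. Beside CAGCTG, a palindrome that reads the same on both strands, the base just before was T at 14.9% and 20.1%.

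Because SCL is known to be bound together with GATA factors, GATA sequence that the rule did not exclude was counted next. The rule left room for GATA outside the window, for the 4 bases GATA in other contexts, and for variants such as GATT. A full GATA motif lay beyond 50 bp but within 100 bp of the summit in 683 members (45.3%, 42.8% to 47.8%), against 17.8% (17.0% to 18.7%) of the matched flanking windows. Its density in members was 7.10 per 1000 start positions (6.44 to 7.80) at 50 to 75 bp, 3.81 (3.34 to 4.34) at 75 to 100 bp and 2.44 at 100 to 150 bp. From 150 bp outwards it stayed between 2.02 and 2.16 up to 2 kb. Peaks with neither motif had almost the same profile, with 6.82 (6.07 to 7.63) at 50 to 75 bp. Composite peaks, which already held GATA in the window, had 4.04 (3.73 to 4.37) there.

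**Figure D2:**
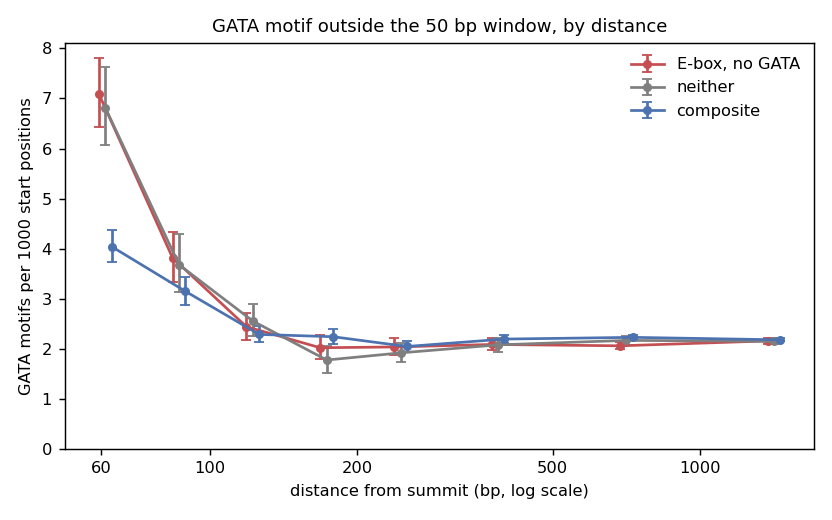
Density of the GATA motif outside the 50 bp window, per 1000 start positions, against distance from the summit in bp (log scale), for peaks with an E-box and no GATA, peaks with neither motif and composite peaks; points are bins drawn at their geometric middle, slightly offset, with exact Poisson 95% intervals. In members the density fell from 7.10 at 50 to 75 bp to 2.02 at 150 to 200 bp.

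Members with a GATA motif in this outer zone had a median fold of 10.2 (9.76 to 10.99), and those without it 8.92 (8.51 to 9.41). The zone held a GATA motif at 10 of the 12 strongest members, and the remaining 2, at Zfp521 and Rbfox1, held the 4 bases GATA inside the window. It did so at 56.9% (44.1% to 68.8%) of the 58 members with a fold of at least 50 and at 44.8% (42.3% to 47.4%) of the rest, intervals that overlap. Inside the window the 4 bases GATA were found in 473 members (31.4%, 29.1% to 33.8%), against 23.2% of the flanking windows, with a median fold of 10.1 and of 9.17 in the other members.

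Among 2072 sequences of 6 bases, each joined with its reverse complement, those most over-represented in members by difference in share were looked up. By this measure AGATTA ranked 17 and GATTAG 20. AGATTA was found in 14.1% of members and 3.37% of the flanking windows, and GATTAG in 12.8% and 2.23%. Both hold GATT. The spacing between CTG and GATT was therefore scanned from 0 to 20 bp, a step chosen after these sequences had been seen. It peaked at 9 bp, where 136 members (9.02%) held the pair, and at 8 bp, where 90 did (5.97%). At 10 bp it was in 4.11%, and at the other gaps in 1.26% to 3.98%. In the flanking windows it was in 1.25% at 9 bp and 1.35% at 8 bp.

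CTG at 8 or 9 bp from GATT was thus found in 223 members (14.8%, 13.1% to 16.7%) and in 2.59% (2.27% to 2.96%) of the flanking windows, a ratio of 5.70 (4.76 to 6.82). The share depended on the window, at 5.90% with 25 bp and 24.9% with 100 bp on each side. The pair was about as frequent in peaks with neither motif, at 18.2% (16.1% to 20.6%). It was less frequent where GATA was present, at 6.66% (5.79% to 7.64%) in peaks with GATA and a separate E-box and 4.53% (3.92% to 5.23%) in composite peaks, and these intervals did not overlap that of the members. The 223 had a median fold of 10.8 (9.61 to 12.2), an interval that overlapped the 9.32 (9.02 to 9.80) of the members without the pair, and 7 of them (3.14%) reached a fold of 50, against 51 (3.97%) without it.

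In 67 of the 223 the CTG ended a full E-box, 4.44% (3.51% to 5.60%) of members against 0.231% (0.148% to 0.361%) of the flanking windows. Their median fold was 12.7 (11.4 to 14.9), above the 9.39 (9.07 to 9.80) of the other members, and 3 of them (4.48%) reached a fold of 50, against 55 (3.82%). A full E-box of any type, whether or not it ends in CTG, stood 8 or 9 bp before GATT in 127 members (8.42%) and 1.79% of the flanking windows. These 127 had a median of 12.2 (10.9 to 14.6), and the other members 9.31 (8.997 to 9.67). A fold of 50 was reached by 8 of them (6.30%) and by 50 of the others (3.62%).

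The 5 strongest members with the CTG and GATT pair were the peaks at 0610040F04Rik (fold 139.9), Usp10 (73.6), Ncam1 (60.7), 1500009L16Rik (58.5) and Mycn (56.6), the sites printed above. Usp10 had a second such site in its window, on the other strand. Ncam1 encodes a neural cell adhesion molecule, and Mycn a MYC family transcription factor that the study lists as repressed by SCL. The study lists 0610040F04Rik as activated. The peak at Elk3, an Ets factor gene of endothelium, also held the pair, with a CTG that ended CAGCTG. Its fold was 18.8 (15.9 to 22.1).

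By difference in share, an Ets-like sequence was the most over-represented of all. CAGGAA was found in 620 members (41.1%, 38.7% to 43.6%) and in 9.77% of the flanking windows, the largest difference of the 2072 sequences. AGGAA, which it contains, was in 59.6% (57.1% to 62.1%) against 29.8%. AGGAA was not limited to members, since it was in 63.4% of peaks with neither motif, 56.9% of those with GATA only and 47.3% of composite peaks. CAGGAA was in 42.5%, 34.6% and 26.3% of the same classes, and so was about as frequent in peaks with neither motif as in members. The longer Ets sequence GGAAGT was in 15.6% of members and 5.86% of flanking windows. AGGAA was accompanied by little change in fold, with a median of 9.90 in members that held it and 9.12 in those that did not.

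The distance between GGAA and the E-box was fixed in a share of members. GGAA stood 1 bp before an E-box in 179 members (11.9%, 10.3% to 13.6%) and in 1.24% (1.02% to 1.51%) of the flanking windows, a ratio of 9.55 (7.54 to 12.1). At each other gap from 0 to 20 bp the pair was in 1.33% to 2.52% of members, and with GGAA after the E-box no gap exceeded 2.85%. Of the 185 such sites, 84 had CAGATG, 44 CAGCTG and 32 CACCTG. The base between was A at 91 and G at 86, C at 6 and T at 2. CAGATG preceded by GGAA at this spacing was in 5.57% of members and 0.146% of the flanking windows. The arrangement was less frequent in peaks with GATA and a separate E-box, at 4.53% (3.82% to 5.37%). Composite peaks need not hold a full E-box, and among the 1978 that did it was in 65, 3.29% (2.59% to 4.17%). The share of members depended on the window and was 7.69% with 25 bp on each side.

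**Figure D3:**
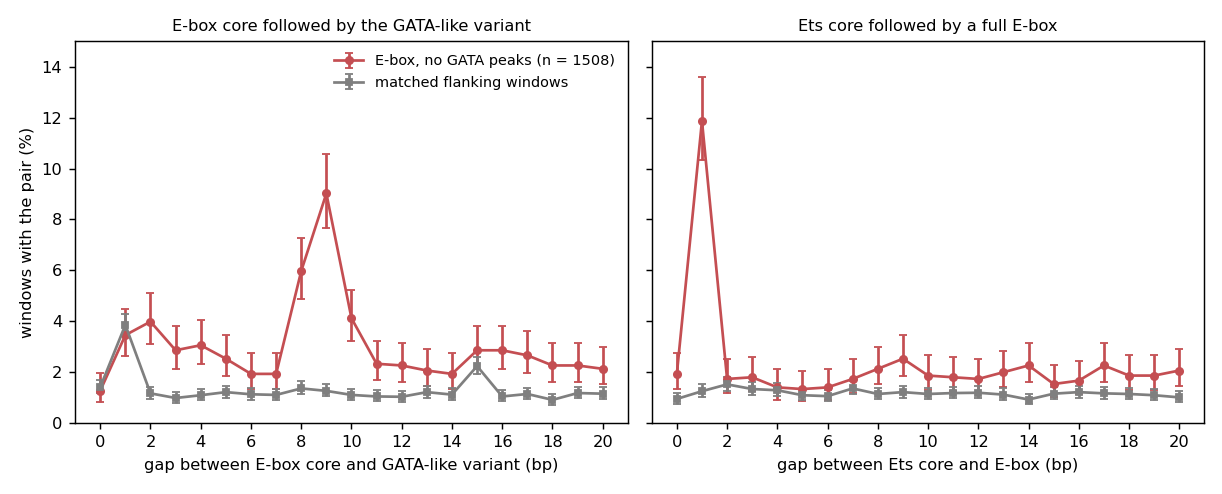
Share of windows with a motif pair against the gap between them in bp, for the 1508 peaks with an E-box and no GATA and the 8209 matched flanking windows, with Wilson 95% confidence intervals. Left, CTG, whether or not it ended an E-box, followed by the GATA-like variant (GATT), highest at 9 bp with 9.02% of members. Right, the Ets core (GGAA) followed by a full E-box, highest at 1 bp with 11.9%.

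Members with GGAA beside the E-box had a median fold of 11.4 (9.10 to 12.6), an interval that overlapped the 9.39 (9.07 to 9.79) of the others. A fold of 50 was reached by 3 of them (1.68%) and by 55 of the others (4.14%). The strongest were at Rbfox1 (104.5), 1700112E06Rik (95.2), Snx9 (81.2), Gm5607 (47.4) and Vps13c (43.7). Snx9, a membrane trafficking gene, is on the study's list of genes activated by SCL, and Rbfox1 on its repressed list. The peak in an intron of Efnb2, which encodes the arterial ligand ephrin-B2, also held it, at chr8:8623628-8623646 (minus strand, fold 14.6). The line below shows it, again with GGAA and the E-box in capitals.
Efnb2: tggaGGAAgCAGGTGttgg

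Of the 223 members with the CTG and GATT pair and the 179 with GGAA 1 bp before an E-box, 20 held both. A CTG and GATT pair, the 4 bases GATA in the window or a full GATA motif within 100 bp was present in 1057 members (70.1%, 67.7% to 72.4%), against 37.8% of the flanking windows. They had a median fold of 10.1 (9.67 to 10.7), and 50 of them reached a fold of 50. The 451 members with none of these had a median of 8.35 (7.87 to 8.74), and 8 reached a fold of 50. Of these 451, 150 also lacked AGGAA and had a median of 7.39 (6.998 to 7.87).

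The remaining motifs differed less from the flanking level than CAGGAA did, in either direction. For the RUNX sequence TGTGGT the shares were 9.75% in members and 10.2% in the flanking windows, and for the FOX sequence TGTTTAC 1.39% and 1.64%. For these, and for the SOX sequence ACAAAG, the TEAD sequence GGAATG and the NFI sequence TTGGC, the interval of the ratio included 1. The AP-1 sequence TGANTCA was higher in members, at 6.10% (5.001% to 7.42%) against 3.24%, and so was TGACAG, bound by MEIS and TGIF factors, at 13.1% (11.5% to 14.9%) against 9.07%. The SOX sequence ACAATG was in 8.36% and 5.41%, and the T-box sequence AGGTGTGA in 1.26% and 0.597%. Of the KLF and SP1 sequences, CCCGCC was in 3.45% and 1.74%, a ratio of 1.98 (1.45 to 2.71), and CCACCC in 9.22% and 7.52%, while CCAACC was lower, in 3.51% and 4.86%, a ratio of 0.723 (0.546 to 0.958). The SMAD sequence GTCTG was in 25.8% and 21.5%, and CCCTC and AGGGGGC, both part of the CTCF motif, in 27.2% and 22.3% and in 1.99% and 1.29%. The homeobox sequence TAATTA was lower, at 1.06% against 2.57%, and so was the OCT sequence ATGCAAAT, at 0.332% against 1.05%. The MEF2 consensus searched was in 0 members and 1 flanking window. In peaks with neither motif, TGANTCA was in 6.28%, TGACAG in 10.5% and ACAATG in 8.16%. In those with GATA and a separate E-box the shares were 6.15%, 12.4% and 6.01%. The higher share of TGANTCA was thus not particular to members. All were searched on both strands, AGGTGTGA can overlap the E-box CAGGTG, and a match is a description of the letters and not of binding.

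To locate the members, summits were placed on the gene annotation. Of the members 797 lay between genes (52.9%), 663 in introns (44.0%) and 48 in exons (3.18%, 2.41% to 4.19%), against 53.2%, 44.6% and 2.16% of the other distal peaks. Members lay a median of 24.9 kb from a TSS and the other distal peaks 24.4 kb. Another SCL summit lay within 10 kb of 495 members (32.8%, 30.5% to 35.2%), against 30.7% (29.8% to 31.6%) of the other distal peaks. In 299 of these 495 (60.4%, 56.0% to 64.6%) the nearest neighbour had the higher fold, with medians of 9.79 for all 495 members and 12.7 for their neighbours. Among the other distal peaks with a neighbour this was so in 48.8% (47.1% to 50.5%), and their median fold was 12.6. The neighbour was a composite peak for 140 of the 495 (28.3%), against 28.6% of the other distal peaks with a neighbour, and another member for 79 (16.0%, 13.0% to 19.4%), against 12.4%.

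Members were spread over 1297 nearest genes, of which 1122 had a single member. The nearest gene is a label of position and need not be regulated by the peak. The most members at 1 gene was 4, at Klf13, Med13l, Rbfox1, Smad1, Srp9, Wwox and Gm5083. At Smad1, which encodes a transducer of BMP signals, the 4 members had folds of 26.5, 8.86, 6.76 and 4.70 among 7 distal peaks. At Rbfox1 the folds were 104.5, 20.2, 12.8 and 10.8. By chromosome, the share of distal peaks that were members ran from 7.66% (5.02% to 11.5%) on the X to 16.7% (13.4% to 20.6%) on chromosome 16 and 16.3% (13.9% to 18.9%) on chromosome 8, leaving aside the Y with 5 distal peaks.

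Genes of known function in mesoderm were then grouped by lists. Blood regulators had 15 members, 14.9% (9.21% to 23.1%) of their distal peaks against 12.8% of all distal peaks, with a median fold of 19.0 and of 16.4 for the other distal peaks of the same genes. They lay at 8 of the 24 genes. The highest was at Zfpm1, with folds of 106.0, 8.997 and 5.04. Erg had 66.2 and 58.0, and Gse1, a gene associated with the LSD1 corepressor complex, had 60.9, 42.0 and 4.41. Fli1 had 33.6 and 14.0, and Lyl1, the closest relative of SCL, 30.3 at an exonic peak 1384 bp from its TSS. Cbfa2t3, which encodes the corepressor ETO2, had a peak with a fold of 19.0. The members at Runx1 (7.77 and 7.69) and at Sfpi1, which encodes the myeloid factor PU.1 (7.87), were under the median of all members. Those named for Runx1 lay between genes, 78124 and 180765 bp from its TSS. Sfpi1 entered the list through its other symbol, Spi1.

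Endothelial genes had 11 members among 89 distal peaks (12.4%, 7.04% to 20.8%), with a median fold of 9.41 and of 12.7 for their other distal peaks. The folds at Aplnr, 151.6 and 61.1, were above the rest. Elk3 had 18.8 and 9.43, and Efnb2 14.6. Cldn5 (9.41), Cdh5 (8.52 and 7.52) and Ets1 (7.71), genes of endothelial tight junctions, adherens junctions and Ets control, were close to the median of members or below it. The peak named for Ets1 lay 139140 bp from its TSS. Notch1 (5.61) and Nrp1 (5.08) had the lowest folds of this list.

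Cardiac, paraxial and other lists held few members. Of cardiac genes, Gata4 had folds of 11.5 and 6.21 and Mef2c 6.86, 3 members of 27 distal peaks. Paraxial and early mesoderm genes had 6 of 33 (18.2%, 8.61% to 34.4%), with folds of 11.8 at T, 10.6 at Eomes, 9.16 and 7.11 at Foxc2, 7.70 at Pax3 and 6.24 at Meox1. Among E proteins and other bHLH genes, none of the E protein genes Tcf3, Tcf4 and Tcf12 was nearest to a member. Id3 (10.5), Id2 (7.57) and Hey1 (7.68 and 6.48) were, the Id genes encoding inhibitors that bind E proteins. Polycomb genes had 3 of 41, at Rybp (9.97 and 7.89) and Kdm2b (7.84). The peaks named for Rybp lay between genes, 103053 and 101693 bp from its TSS, and those named for Foxc2 84900 and 113552 bp. With 3 to 15 members a list, the shares could not be told from 12.8%, which every list's interval included.

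**Figure D4:**
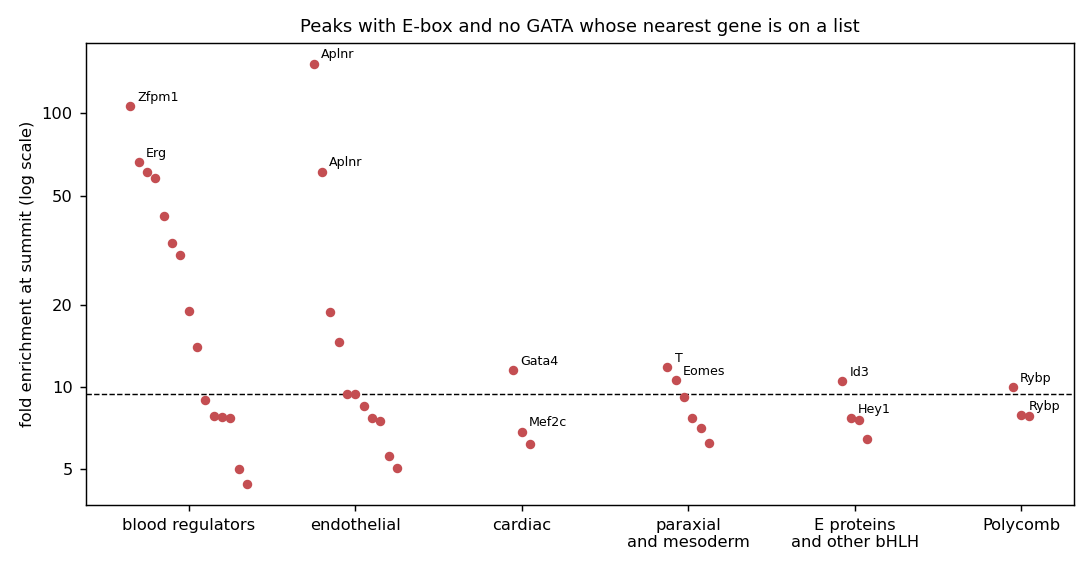
Fold enrichment at the summit (log scale) of each peak with an E-box and no GATA whose nearest gene is on 1 of the 6 lists, 1 point a peak, ordered by fold within a list; the dashed line is the median of all 1508 members, 9.46. Folds above 50 were found in the blood and endothelial lists.

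The study's lists of genes that SCL activates or represses were chosen with these ChIP libraries and give no independent evidence. The nearest gene was on the activated list for 159 members (10.5%, 9.09% to 12.2%) and for 10.9% of the other distal peaks. It was on the repressed list for 71 members (4.71%, 3.75% to 5.90%) and for 3.62% (3.27% to 3.995%) of the other distal peaks, and these intervals overlapped.

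A small set of members lay on unusually deep background. In 16 members the local background was more than 10 times the median of all peaks, from 40.3 to 6272 fragments, and their median fold was 2.502. Of these, 9 lay on chromosome 8 between 19694206 and 19971453. They are among the 133 members on chromosome 8 and are counted in its share of 16.3% given above. One of the 16 held CAGATG and another CAGCTG. Without them the CTG and GATT pair was in 14.9% of members and GGAA beside the E-box in 12%.

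Peaks near the limits of the rule had similar folds on both sides. The 141 members whose nearest E-box centre was 40 bp or more from the summit had a median fold of 9.89, and the 108 peaks with neither motif that would enter with a window of 60 bp had 8.89. The 283 members that would leave with a window of 60 bp, as a GATA motif or composite came in, had 10.5, and the 393 peaks that would enter with a window of 40 bp had 10.8. By distance, the 42 members within the first 500 bp beyond the 1 kb limit had 8.78, and the 41 peaks of the same sequence within 500 bp inside it had 8.64.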

How the data were processed

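SCL ChIP-seq was analysed from 1 pooled peak list of 2 ChIP and 2 input libraries from day 3.5 FLK1+ cells. The authors aligned paired-end reads to mm9 with Bowtie (version 1.1.2), removed duplicates, merged the replicates, called peaks with MACS2 (version 2.0.10) and set the list by irreproducible discovery rate (IDR). Tool versions are also those in the submitters' processing notes. Reads matching up to 2 places in the genome were kept, which bears on repeated sequence.

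The fold enrichment deposited for each peak is a ratio of ChIP to local background at the summit. The −log10 p and −log10 q are the authors' MACS2 values, used to solve the pileup and to filter. The deposited score follows from p and was not used. The library depth is not given in the list. Pileup and background were solved together from (pileup + 1) / (background + 1) = fold and the Poisson p, and matched p within 0.001 in 99.9% of peaks. Both the motif search and this step were tested on simulated data. In the test of the motif search, a window planted with an E-box alone also passed when it was called GATA or composite. That error could therefore not be seen.

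The NCBIM37 genome was searched for motifs, both strands included, up to 50 bp from each summit, and in windows of equal length 1 kb to either side of the summits of distal peaks. TSSs came from GENCODE vM1 (26225 genes of the protein-coding, lincRNA and processed-transcript types, with 75543 TSSs). Shares have Wilson intervals, medians order-statistic intervals, densities and pileups exact Poisson intervals, all at 95% and for counting error only. The interval of a single fold comes from its pileup, with the local background held fixed. No p was computed, as the list has no value per library and its peaks are not replicates. Analyses used Python 3.11.15, numpy 2.4.6, pandas 2.3.3, scipy 1.17.1 and matplotlib 3.10.9.

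Named are the 12 members with the highest fold, the strongest with each of the 10 E-box types, and members nearest to genes of the 6 lists. Of the activated list 489 of 514 names matched directly and 22 by another symbol, of the repressed list 253 and 10 of 264. The members, lists and motifs were chosen with earlier results of these data known. The scans of CTG with GATT and of GGAA with the E-box, the GATA counts outside the window, and the peaks named for them were added after seeing the data. Alternatives were the window, the distance to a TSS, the peak threshold, high background, merging of near summits, the GATA definition, the flanking distance, pileup in place of fold, the neighbour distance and the gene assignment.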

Additional observations from a re-analysis of the deposited data

How the results depend on the processing

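Of 104 values under alternatives, 73 stayed within the interval of the value reported or, for the number of members, within 1.5 times it, 31 moved and 0 reversed. The 1508 members became 2016 with windows of 25 bp, 1046 with windows of 100 bp and 1035 with the 4 bases GATA excluded as well. The number of members fell to 706 at a fold of at least 10 and to 486 at a −log10 q of at least 50, both of which leave fewer peaks by construction. At these thresholds the median fold of members was 16.3 and 21.2. The difference from composite peaks, -3.80 in the fold reported, was -5.36 at the q threshold, and -12.0 when measured in fragments of pileup. The difference from peaks with neither motif was 2 fragments (-0.5 to 4.5).

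With windows of 25 and 100 bp, the median fold of members was 10.8 and 8.66, and the difference from composite peaks -2.69 and -4.43. The difference from peaks with neither motif was 0.953 (0.449 to 1.46) at 25 bp and 0.504 (0.0107 to 0.997) with summits within 500 bp merged, intervals that excluded 0. E-boxes within 10 bp of the summit were 43.0% and 15.1% of those in windows of 25 and 100 bp, as the window sets this share. CAGCTG was in 23.2% and 33.0% of members. The CTG and GATT pair was in 5.90% and 24.9%. GGAA beside the E-box was in 7.69% at 25 bp. A longer window holds more sequence, and no further cause was tested.

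At a fold of at least 10, CAGCTG was in 28.2% of members, the CTG and GATT pair in 17.0% and GGAA beside the E-box in 14.2%, a share that was also 14.2% at the q threshold. Nearest genes on the activated list made up 12.6% at the fold and 14.4% at the q threshold, and 8.89% when a listed gene had to hold the summit in its body or within 10 kb. Another summit within the neighbour distance was found for 24.1% and 22.4% of members at the fold and q thresholds, for 37.6% with windows of 100 bp, and for 22.5% and 66.2% at distances of 5 and 50 kb. Summits under the fold or q threshold were removed before neighbours were sought, so that a member could only lose neighbours there by construction. The cause of the other changes at the thresholds was not tested. The pairs with GATT and GGAA were put through the alternatives after seeing the data.

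No paired analysis was possible because both replicates are pooled in the file, and for the same reason none could be left out. Depth limits single peaks. A member at the lower quartile of 35 fragments has a Poisson interval of 24.4 to 48.7, so that many neighbours in rank cannot be told apart. With 20 to 77 members at several E-box types and 3 to 15 at each gene list, small differences in fold were not detectable. The intervals hold no variation between differentiations. A share of windows with a motif says nothing of which factor was bound there.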

Other observations

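Sequence outside the lists of factors was also looked at in the peaks with an E-box and no GATA, as values with no test. Among the 6-base sequences that were rarest relative to the matched flanking windows were runs rich in A and T, with AAATAT in 0.995% of members and 6.82% of flanking windows, and AAAATG in 2.92% and 8.90%. ACACAC, a repeat, was in 7.56% and 13.7%. CAGCAG was in 23.9% and 10.1%.

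From 0 to 20 bp, the share of members with 2 E-boxes at a given gap ran from 0.597% to 1.53%, and that of the matched flanking windows from 0.621% to 1.43%. At a gap of 7 bp it was 1.46% (0.965% to 2.20%) in members and 0.621% (0.473% to 0.816%) in the flanking windows, and at the other gaps the intervals overlapped.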
